A study of Mus musculus with 10 samples.

Results

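Wnt signalling in the embryonic pinna was described here through 10 genes, selected by name from the Ensembl gene rows of a count table. They are 7 Wnt ligands (*Wnt3*, *Wnt4*, *Wnt5a*, *Wnt6*, *Wnt7b*, *Wnt10a* and *Wnt11*), 2 response genes (*Axin2* and *Nkd1*) and the R-spondin ligand *Rspo3*. All 10 were found among the 53465 genes of the table, and all 10 passed the filter on low counts, as did 16426 genes in total. Whole pinna prominences were dissected at E14.5 for bulk RNA-seq, with 5 libraries from wild-type (WT) and 5 from knock-in embryos. The knock-in embryos, mEC1dup/dup, are homozygous for an extra copy of the enhancer mEC1 inserted with CRISPR/Cas9. The enhancer lies near *Hmx1*, a homeobox gene of the outer ear, and both groups were kept on a C57BL/6J background. The number of founder lines is not given in the sources used here, and neither is the sex of the embryos.

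Wnt ligands are secreted, lipid-bound proteins that bind Frizzled receptors on nearby cells. In the canonical branch, the receptors stop the breakdown of beta-catenin, which then turns on target genes together with TCF/LEF factors, and *Axin2* and *Nkd1* are targets of this kind that also restrain the pathway. In the non-canonical branch, for which *Wnt5a* and *Wnt11* are best known, Wnt proteins steer cell movement and tissue outgrowth. In embryonic skin, *Wnt3*, *Wnt4*, *Wnt6*, *Wnt7b* and *Wnt10a* are known as ligands made by the epidermis, whereas *Wnt5a* and *Wnt11* are known from mesenchyme. R-spondins such as *Rspo3* raise the response of a cell to Wnt by keeping its receptors at the surface.

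The total counts were 17461544 to 18462073 per library. *Hmx1* ranged from 21.7 to 29.1 CPM (read counts divided by the TMM-scaled library total, a level that is comparable between libraries) in WT and from 52.8 to 77.5 CPM in mEC1dup/dup. The tissue held markers of every listed cell type, and none of the 12 surface epithelium or 8 dermal fibroblast markers had a count of 0 in any library. Several other measures differed between the genotypes or between libraries. The summed level of 6 suprabasal keratinocyte markers was 163 to 482 CPM in WT and 58.0 to 80.1 CPM in mEC1dup/dup. The embryonic genes gave 18.4% to 23.3% of the globin counts in WT and 32.5% to 35.6% in mEC1dup/dup. That share separates the genotypes, so a fit with it as a covariate estimates the genotype difference poorly. *Xist*, which is expressed in female cells, had at most 5 counts in WT libraries. It had 12812, 19040, 18165, 2096 and 0 counts in mEC1dup/dup replicates 1 to 5. Only replicate 5 of that group was as low as WT, so *Xist* nearly follows the genotype. The sum of 5 leukocyte markers was 104 to 132 CPM in WT and 82.6 to 103 CPM in mEC1dup/dup, and 1 of them, the mast cell gene *Cpa3*, was lower. WT replicate 4 had a summed level of neuron and glia markers of 583 CPM, against at most 271 CPM in the other WT libraries. In bulk tissue, fewer cells of a type and less RNA per cell cannot be told apart.

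Of the 10 Wnt genes, 1 was higher in mEC1dup/dup and 0 were lower. *Wnt11* rose, with a log2 fold change of 0.28 (SE 0.07 and edgeR adjusted p = 0.0458). A call required that the p of edgeR's quasi-likelihood test, adjusted by Benjamini-Hochberg, was no greater than 0.05 and that log2 CPM averaged 1 or more, which 2.64% of all tested genes met, 0.834% as higher and 1.81% as lower. Without the condition on CPM the share was 2.77%, and *Wnt11* was again the 1 gene of the 10. At an unadjusted p under 0.05, 2 of the 10 were found, against 16.2% of all tested genes. The groups overlapped in all 10 Wnt genes, where they did not overlap in 5.07% of tested genes. The median log2 fold change was 0.03 over the 10 and -0.00415 over all tested genes.

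**Figure D1:**
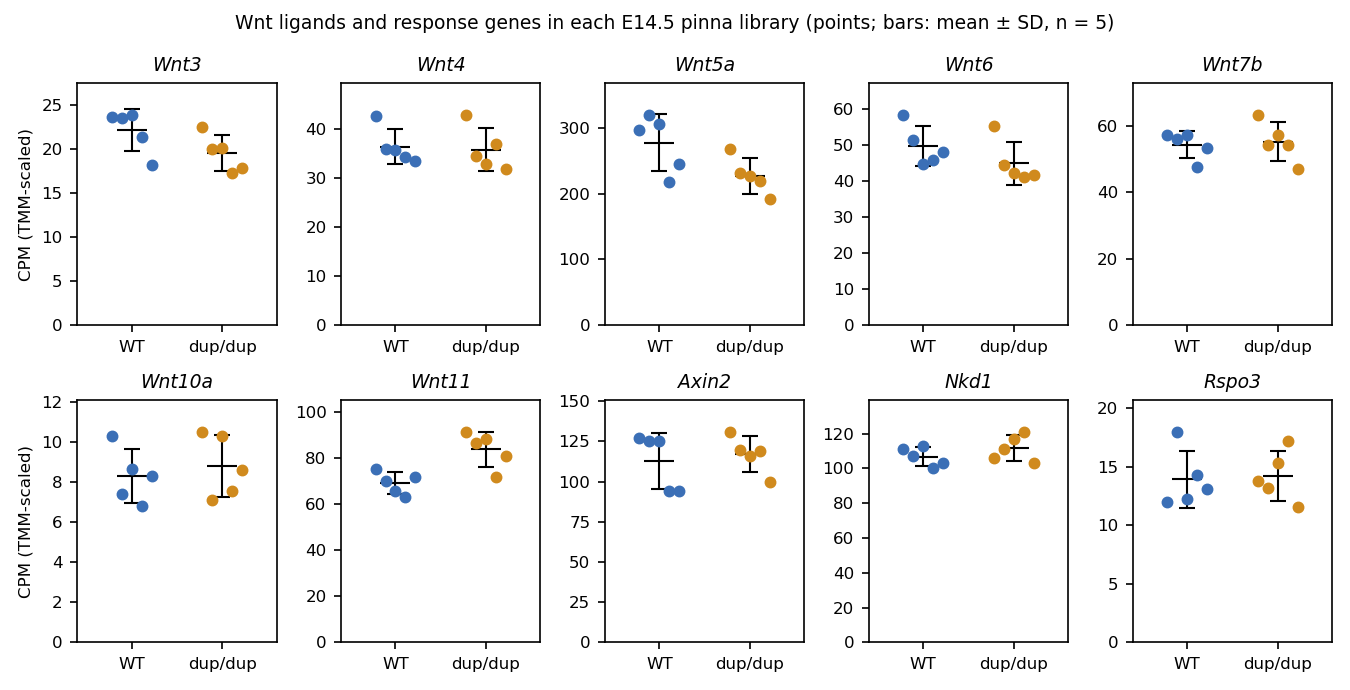
Level of each Wnt gene in TMM-scaled CPM (y axis, from 0) in the 5 WT and 5 mEC1dup/dup libraries (points, replicates 1 to 5 from left to right), with the mean ± SD (bars, n = 5). Only *Wnt11* was called, with 4 of the 5 mEC1dup/dup libraries above every WT library, and *Wnt5a* had the highest CPM.

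Levels were compared between genes as RPKM (CPM divided by the length of the annotated exons in kilobases). In WT, *Wnt5a* stood highest with a mean of 34.5 RPKM (27.2 to 39.9), and its range did not reach that of any other of the 10 genes. *Wnt6* (17.7 RPKM), *Axin2* (16.3), *Wnt11* (13.7) and *Nkd1* (12.9) followed, and in this order each range overlapped the next. *Wnt7b* had a mean of 10.6 RPKM and overlapped neither neighbour. *Wnt4* (7.21 RPKM) and *Wnt3* (7.03) overlapped each other, and below them *Rspo3* (3.30) and *Wnt10a* (1.95) were apart from each other and from the rest. In mEC1dup/dup the same genes held ranks 5 to 10 and the first rank. *Wnt11* stood at 16.6 RPKM between *Axin2* (16.9) and *Wnt6* (16.0), and the ranges of neighbours in this order overlapped.

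**Figure D2:**
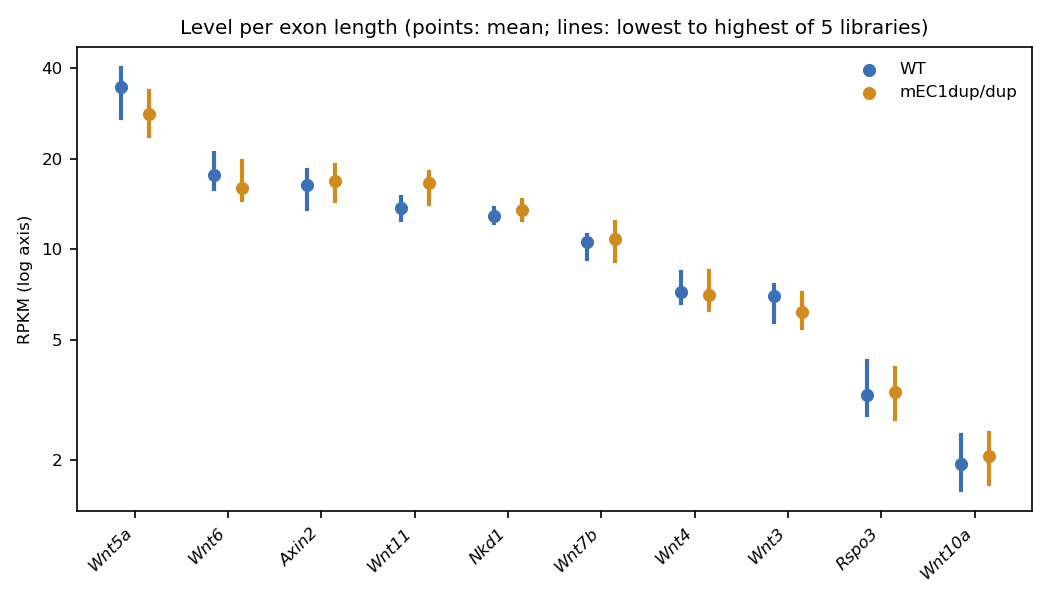
Level per exon length in RPKM (y axis, log scale) for the 10 Wnt genes, ordered by the WT mean. Points are means and lines run from the lowest to the highest of 5 libraries per genotype, so that *Wnt5a* is apart at the top (34.5 RPKM in WT) and *Wnt10a* at the bottom (1.95).

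The 7 ligands held most of the Wnt ligand message. They gave 81.8% to 84.7% of the summed RPKM of all 19 Wnt genes in WT libraries and 80.3% to 83.1% in mEC1dup/dup libraries. The share of *Wnt5a* was 27.6% to 34.0% in WT and 24.6% to 27.4% in mEC1dup/dup, and that of *Wnt11* was 11.6% to 13.5% and 14.2% to 16.5%. For both ligands the ranges of the genotypes were apart, with *Wnt5a* taking a smaller and *Wnt11* a larger share in mEC1dup/dup. The counts of 1 Wnt gene relative to another did not overlap between genotypes in 6 of 45 ratios among the 10 genes, against 4.61% of all ratios between tested genes, and the smallest p adjusted over the 45 was 0.0595 (two-sided exact permutation test). All 6 had the smallest p that this test allows with 5 libraries per group, so the adjusted p is set by their number. The shares are a description without a test, and a share falls when another gene of the sum rises.

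*Wnt11* (ENSMUSG00000015957) lies on chromosome 7 (GRCm39, 98484319 to 98504402, plus strand). Its protein is a non-canonical ligand known for directing cell movement and for ureteric and cardiac development. The WT libraries held 75.3, 70.0, 65.7, 63.0 and 71.6 CPM in replicates 1 to 5, and the mEC1dup/dup libraries 91.4, 86.7, 88.1, 71.6 and 81.0 CPM. mEC1dup/dup replicate 4 was the low library of its group and lay within the WT range, while the other 4 lay above all WT libraries. The means were 69.1 ± 4.84 CPM (SD, n = 5) and 83.8 ± 7.79 CPM (SD, n = 5), and the 95% interval of the log2 fold change was 0.13 to 0.42. Counts of 1138 to 1623 per library gave a counting error of 2.69% of the mean, below the SD between replicates of 7.0% in WT and 9.30% in mEC1dup/dup.

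The call of *Wnt11* was near the threshold. Leaving out libraries 1 at a time ended it in 9 of 10 fits, all but the one without mEC1dup/dup replicate 4 (log2 fold change 0.33). In those 9 the log2 fold change lay between 0.24 and 0.31 and the adjusted p of edgeR's test reached 0.135. It was also lost in limma-voom (adjusted p = 0.0529) and with log2 CPM of *Xist* (log2 fold change 0.19, adjusted p = 0.614), the embryonic globin share (0.28, adjusted p = 0.918) or the mean log2 CPM of the epithelium markers (0.41, adjusted p = 0.127) as a covariate in edgeR's test. The sign was positive in all 20 alternatives. Annotated antisense genes share 7.20% of its exonic bases. The labels and the study's methods name different kits, and both were taken as not keeping strand.

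*Wnt11* moved most closely with *S1pr3*, a receptor for sphingosine-1-phosphate (Pearson r = 0.952 of log2 CPM over 10 libraries), with *Ppp1r13b*, which encodes a p53-binding protein (r = 0.950), and with *Nnt*, the mitochondrial transhydrogenase (r = 0.949). After each genotype was centred on its own mean, r was 0.87, 0.86 and 0.92. The libraries share depth, stage and cell makeup, and the values are a description of which genes were most alike out of all tested.

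The sequence near the start of *Wnt11* is shown because it is the gene that was called, with *Axin2* as the usual canonical target and *Wnt3* as the promoter with an HMX core. RefSeq's promoter table (GRCm38.p6, 250 bases before to 50 after each start) held 7 promoters of 6 of the 10 genes. *Wnt5a*, *Wnt7b*, *Wnt10a* and *Rspo3* had no entry. Each promoter was placed in GRCm39 by an exact match that was found once on its chromosome. Capitals mark CTTTGA, a core bound by TCF/LEF factors, or CAAGTG, a core bound by HMX proteins, on either strand. The *Wnt11* promoter is at chr7:98484069-98484368, the *Axin2* promoter at chr11:108810925-108811224 and the *Wnt3* promoter at chr11:103664751-103665050, all on the plus strand.
Wnt11: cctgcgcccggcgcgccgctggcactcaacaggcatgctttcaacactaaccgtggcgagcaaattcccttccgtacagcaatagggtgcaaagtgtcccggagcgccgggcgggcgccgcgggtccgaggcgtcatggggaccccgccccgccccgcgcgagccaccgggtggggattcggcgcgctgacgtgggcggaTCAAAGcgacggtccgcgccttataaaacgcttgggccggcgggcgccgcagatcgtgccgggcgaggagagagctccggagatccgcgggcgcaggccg
Axin2: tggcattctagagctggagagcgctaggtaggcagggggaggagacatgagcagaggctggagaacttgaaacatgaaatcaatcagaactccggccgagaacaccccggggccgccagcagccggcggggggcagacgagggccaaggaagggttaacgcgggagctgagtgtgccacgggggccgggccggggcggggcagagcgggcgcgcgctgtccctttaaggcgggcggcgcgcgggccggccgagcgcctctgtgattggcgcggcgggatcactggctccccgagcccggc
Wnt3: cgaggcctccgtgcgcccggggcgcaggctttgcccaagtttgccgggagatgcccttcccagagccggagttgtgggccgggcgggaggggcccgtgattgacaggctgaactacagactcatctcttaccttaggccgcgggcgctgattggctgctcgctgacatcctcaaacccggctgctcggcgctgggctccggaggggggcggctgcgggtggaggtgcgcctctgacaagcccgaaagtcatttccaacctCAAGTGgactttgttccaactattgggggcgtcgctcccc

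The *Wnt11* promoter shown held 1 match to CTTTGA on the reverse strand, 50 bases before the start, and the *Wnt3* promoter held 1 match to CAAGTG, 10 bases after the start. A second *Wnt11* promoter in the table, at chr7:98487802-98488101, held neither core, nor did the *Axin2* promoter or the promoters of *Wnt4*, *Wnt6* and *Nkd1*. CTTTGA was present in 16.0% and CAAGTG in 13.6% of the 32851 promoters in the table, so that 1 of 7 in these genes was close to the share in all promoters. A match is a description of the letters in this window.

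*Wnt5a* (ENSMUSG00000021994; chromosome 14 from 28226495 to 28249405, plus strand) encodes the ligand that drives outgrowth of the face, limbs and external ear. It had 297, 320, 305, 218 and 245 CPM in WT replicates 1 to 5 and 268, 231, 226, 219 and 191 CPM in mEC1dup/dup replicates 1 to 5. WT replicates 4 and 5 were low and lay within the mEC1dup/dup range, and the other 3 WT libraries lay above every mEC1dup/dup library. The log2 fold change was -0.29 (SE 0.11, 95% interval -0.52 to -0.06) with an unadjusted p of 0.0174 and an adjusted p of 0.188 in edgeR's test, so it was not called. Without WT replicate 4, the library with the high neuron and glia markers, the log2 fold change was -0.37. The adjusted p of edgeR's test was then 0.0355, which passes the threshold. With the replicate number as a block, *Wnt5a* stood at -0.28 with an adjusted p of 0.0351 in edgeR's test, which also passes. Whether the numbers pair the libraries is not settled. With the epithelium markers or the embryonic globin share as a covariate the log2 fold change turned positive (0.04 and 0.20). The adjusted p were 0.909 and 0.960 in edgeR's test. The globin share separates the genotypes, and beside it the SE was 0.48, against 0.11 without it. The epithelium markers nearly follow the genotype, since only mEC1dup/dup replicate 1 reached the WT range of their summed CPM. With *Xist* as the covariate *Wnt5a* moved the other way, to -0.53 (adjusted p = 0.356 from edgeR). The dermal fibroblast markers had a median log2 fold change of -0.28, with 7 of 8 negative. Of the 8, 2 were called lower (*Dpt* and *Lum*), against 1.81% of all tested genes. The part of these markers in the *Wnt5a* value was not tested.

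Among the ligands known from epidermis, *Wnt3* (ENSMUSG00000000125, chromosome 11) is needed for early axis formation and is active in hair follicles. It had 409, 424, 426, 387 and 328 counts in WT and 394, 362, 370, 321 and 329 counts in mEC1dup/dup replicates 1 to 5, with means of 22.1 ± 2.42 CPM and 19.5 ± 2.08 CPM (SD, n = 5 each). WT replicates 4 and 5 (21.4 and 18.2 CPM) were the lowest WT libraries and lay within the mEC1dup/dup range of 17.3 to 22.5 CPM. The log2 fold change of -0.18 (95% interval -0.38 to 0.02, adjusted p = 0.368 from edgeR) was not called. *Wnt6* (ENSMUSG00000033227) and *Wnt10a* (ENSMUSG00000026167), which is required in teeth and skin appendages, are neighbours on chromosome 1, *Wnt6* ending at 74824975 and *Wnt10a* starting at 74830675.

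*Wnt6* had 58.5, 51.4, 44.7, 45.9 and 48.0 CPM in WT and 55.4, 44.4, 42.3, 41.2 and 41.7 CPM in mEC1dup/dup. Replicate 1 was the highest library in both genotypes, and the log2 fold change of -0.14 (95% interval -0.34 to 0.05, adjusted p = 0.492 from edgeR) was not called. It was -0.23 without mEC1dup/dup replicate 1 and -0.08 without WT replicate 1. For *Wnt10a* the values were 10.3, 7.42, 8.64, 6.81 and 8.31 CPM in WT and 10.5, 7.11, 10.3, 7.55 and 8.61 CPM in mEC1dup/dup. The groups of this ligand covered almost the same range, and its log2 fold change was 0.08 (95% interval -0.22 to 0.39, adjusted p = 0.828 from edgeR). *Wnt10a* had the fewest counts of the 10 genes, 123 to 189 per library, with a counting error of 8.06% of the mean.

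*Wnt4* (ENSMUSG00000036856, chromosome 4), a ligand of epithelial and urogenital development, ranged from 33.5 to 42.6 CPM in WT and from 31.8 to 42.9 CPM in mEC1dup/dup, and replicate 1 was again the highest library in both genotypes. *Wnt7b* (ENSMUSG00000022382, chromosome 15), a canonical ligand of skin and lung epithelium, ranged from 47.6 to 57.3 CPM and from 46.9 to 63.3 CPM. Their log2 fold changes were -0.02 (95% interval -0.21 to 0.16) and 0.03 (95% interval -0.14 to 0.19), with adjusted p of 0.927 and 0.904 in edgeR's test. The intervals of both genes lay within 0.21 of 0 on the log2 scale.

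Markers of the epithelium moved in the same libraries. Of the 12 surface epithelium markers, 5 were lower in mEC1dup/dup (*Krt5*, *Krt14*, *Perp*, *Dsp* and *Sfn*) and 0 were higher. Over all tested genes, 1.81% were lower and 0.834% higher. The median log2 fold change of the 12 markers was -0.47. Their summed level was 1210 to 2050 CPM in WT and 976 to 1240 CPM in mEC1dup/dup, and no marker of the list was at 0. *Epcam* (log2 fold change 0.04) and *Cdh3* (0.02) were not called. With the mean log2 CPM of these 12 markers as a covariate, *Wnt3*, *Wnt4* and *Wnt6* had positive log2 fold changes of 0.06, 0.23 and 0.13, with adjusted p of 0.862, 0.356 and 0.625 in edgeR's test. In the same fit *Wnt7b* stood at 0.20 (adjusted p = 0.426 from edgeR) and *Wnt10a* at 0.38 (adjusted p = 0.430 from edgeR). Beside the embryonic globin share, which separates the genotypes, *Wnt10a* stood at 0.77 (adjusted p = 0.898 from edgeR). Its SE there was 0.615, against 0.142 without a covariate. In both genotypes replicate 1 had the highest sum of epithelium markers, 2050 CPM in WT and 1240 CPM in mEC1dup/dup. Only replicate 1 of mEC1dup/dup reached the WT range of this sum. The markers thus nearly follow the genotype, and a fit with them as a covariate separates the effects poorly. The part of the epithelium in the ligand values was not tested.

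**Figure D3:**
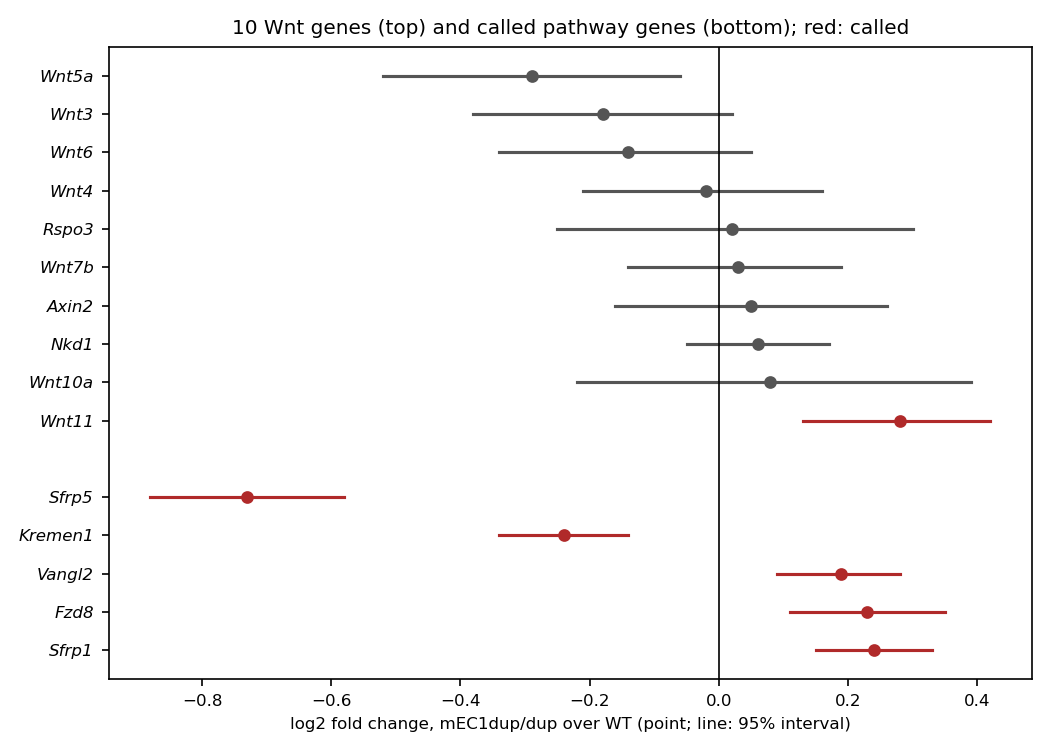
Log2 fold change of mEC1dup/dup over WT (x axis) with its 95% interval (lines) for the 10 Wnt genes and, below, for the 5 called genes among the other pathway genes, called genes in red. *Wnt11* (0.28) and *Wnt5a* (-0.29) are the 2 of the 10 whose unadjusted interval does not include 0.

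*Axin2* (ENSMUSG00000000142; chromosome 11 from 108811169 to 108841609, plus strand) encodes a scaffold of the complex that degrades beta-catenin and is a common readout of canonical signalling. It had 127, 125, 125, 93.9 and 94.0 CPM in WT replicates 1 to 5 and 131, 120, 116, 119 and 100 CPM in mEC1dup/dup. WT replicates 4 and 5 were the lowest of all 10 libraries, as they were the lowest WT libraries for *Wnt5a*, and the other values overlapped fully. The log2 fold change was 0.05 (95% interval -0.16 to 0.26, adjusted p = 0.849 from edgeR). With a covariate it was 0.39 beside the epithelium markers (unadjusted p = 0.0017, adjusted p = 0.169 from edgeR) and -0.15 beside *Xist* (adjusted p = 0.791 from edgeR). Beside the embryonic globin share it was 0.76, with an SE of 0.409 against 0.097 without it (adjusted p = 0.898 from edgeR). The epithelium markers and *Xist* nearly follow the genotype, and the globin share separates the genotypes.

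*Nkd1* (ENSMUSG00000031661, chromosome 8), an antagonist that binds Dishevelled, was the steadiest of the 10 genes, with an SD between replicates of 5.10% in WT and 6.61% in mEC1dup/dup. It had 111, 107, 113, 100 and 103 CPM in WT and 106, 111, 117, 121 and 103 CPM in mEC1dup/dup. The groups overlapped, and the log2 fold change of 0.06 (adjusted p = 0.611 from edgeR) had the narrowest interval of the 10, -0.05 to 0.17.

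*Rspo3* (ENSMUSG00000019880, chromosome 10, minus strand) had 12.0, 18.0, 12.3, 14.3 and 13.1 CPM in WT and 13.8, 13.2, 15.3, 17.2 and 11.6 CPM in mEC1dup/dup. WT replicate 2 was the highest and mEC1dup/dup replicate 5 the lowest, and the log2 fold change was 0.02 (95% interval -0.25 to 0.30, adjusted p = 0.949 from edgeR). Antisense genes share 9.55% of its exonic bases, the largest share among the 10.

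Some of these genes varied together between embryos and others did not. With each genotype centred on its own mean, *Axin2* correlated with *Wnt5a* at r = 0.95, with *Wnt7b* at 0.82 and with *Wnt3* at 0.79 (Pearson, log2 CPM, 10 libraries). *Wnt4* and *Wnt6* correlated at 0.85, and *Wnt5a* and *Wnt7b* at 0.90. Lower values were found for *Rspo3*, with r between -0.37 and 0.32 to the other 9 genes, and for *Nkd1*, with r of 0.17 to *Wnt3*, 0.22 to *Wnt4*, -0.14 to *Wnt6*, 0.16 to *Wnt10a* and -0.18 to *Wnt11*. *Nkd1* correlated with *Wnt5a*, *Wnt7b* and *Axin2* at 0.45, 0.46 and 0.59. *Wnt11* correlated with *Axin2* at 0.34 and with *Wnt4* at 0.36. With *Wnt6*, *Wnt10a*, *Wnt7b*, *Wnt5a* and *Wnt3* its r was 0.73, 0.65, 0.56, 0.48 and 0.47. The sum of surface epithelium markers correlated with *Axin2* at 0.81, *Wnt6* at 0.79, *Wnt4* at 0.78 and *Wnt5a* at 0.74, that of dermal fibroblast markers with *Wnt5a* at 0.75 and *Axin2* at 0.74, and that of neuron and glia markers with *Wnt5a* at -0.88. The neuron and glia sum also correlated with *Wnt7b* at -0.76 and with *Axin2* at -0.74. In that sum WT replicate 4 stood far above the other WT libraries (583 CPM against at most 271 CPM). *Nkd1* correlated with the skeletal muscle markers at -0.80. These values describe libraries that share depth, stage and the proportions of their cell types.

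**Figure D4:**
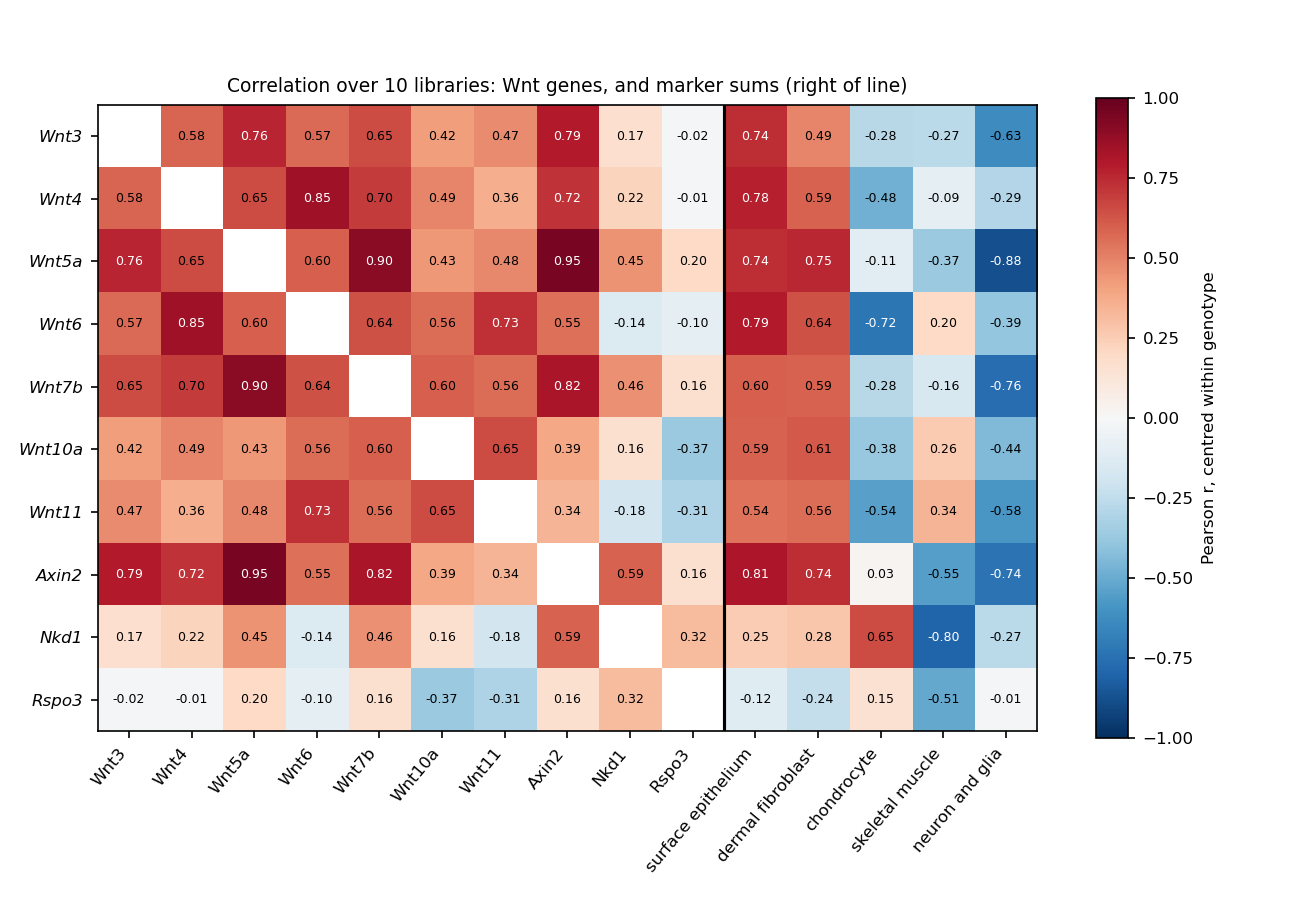
Pearson r of log2 CPM over 10 libraries after centring within genotype (colour and printed value) between the 10 Wnt genes (rows and left columns) and with the log2 summed CPM of 5 marker lists (columns right of the line). *Axin2* and *Wnt5a* have the highest r (0.95), and *Rspo3* has low values with the other 9 genes (-0.37 to 0.32).

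The rest of the pathway was read from fixed lists of 86 genes, of which 82 were tested. *Wnt1*, *Wnt8a*, *Wnt8b* and *Sp8* had at most 6 counts in any library and were not tested. Of the 82, 3 were higher and 2 lower, which is 6.10% against 2.64% of all tested genes, and 31 had an unadjusted p under 0.05, against 16.2% of all tested genes. The mEC1dup/dup libraries all lay below WT in 2 of the 82 and all above WT in 8, against 2.75% and 2.33% of all tested genes. None of the 9 other tested ligands was called. *Wnt5b*, with the highest CPM of them, had 17.2 CPM in WT and 19.4 CPM in mEC1dup/dup (log2 fold change 0.18, adjusted p = 0.289 from edgeR), and *Wnt2* had the smallest p (log2 fold change 0.31, adjusted p = 0.120). *Wls*, the carrier that takes Wnt proteins to the cell surface, had 189 CPM and 186 CPM (log2 fold change -0.02, 95% interval -0.13 to 0.10), and *Porcn*, which attaches the lipid, one of 0.05 (adjusted p = 0.881 from edgeR).

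Of 16 receptors and co-receptors, 1 was higher, against 0.834% of all tested genes. The Frizzled receptor *Fzd8* had 54.4, 62.7, 62.3, 55.3 and 66.0 CPM in WT and 67.1, 73.2, 69.9, 69.5 and 73.1 CPM in mEC1dup/dup. Every mEC1dup/dup library lay above every WT library, with a log2 fold change of 0.23 (SE 0.06 and edgeR adjusted p = 0.0459). The receptor with the highest CPM, *Fzd2*, also had groups that did not overlap, with 422 to 500 CPM in WT and 509 to 542 CPM in mEC1dup/dup, but its log2 fold change of 0.16 was not called (adjusted p = 0.104 from edgeR), although the DESeq2 test called it. Leaving out 1 library ended the call of *Fzd8* in 8 of 10 fits, all but those without mEC1dup/dup replicate 1 or WT replicate 5, with a log2 fold change of 0.20 to 0.25 in those 8, and with each of the 3 covariates (0.07 to 0.27).

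Among 8 R-spondins, their receptors and the ubiquitin ligases they block, 0 were called by edgeR's test. Of the 8, 4 had an unadjusted p under 0.05, against 16.2% of all tested genes. *Rspo2* had 16.7 to 21.2 CPM in WT and 21.4 to 25.4 CPM in mEC1dup/dup, groups that did not overlap (log2 fold change 0.27, adjusted p = 0.0690 from edgeR, called by DESeq2). *Lgr4*, with the highest CPM of this list, showed a log2 fold change of -0.10 (adjusted p = 0.326 from edgeR). None of the 11 other tested response genes was called either, with 3 at an unadjusted p under 0.05, against 16.2% of all tested genes. *Apcdd1*, with the highest CPM of the list though not per length, had a log2 fold change of 0.05 (95% interval -0.12 to 0.23), and *Lef1*, the partner of beta-catenin in skin and the gene with the smallest p, of 0.23 (adjusted p = 0.205 from edgeR).

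In the list of the destruction complex and transducers, 14 of 15 genes had a positive and 1 a negative log2 fold change, with a median of 0.10, and 6 had an unadjusted p under 0.05. Over all tested genes, 8017 of 16426 were positive and 16.2% had such a p. None was called by edgeR. *Ctnnb1*, which encodes beta-catenin, had 885, 885, 849, 820 and 881 CPM in WT and 937, 950, 942, 902 and 930 CPM in mEC1dup/dup. All mEC1dup/dup libraries lay above all WT libraries, by a log2 fold change of 0.11 (95% interval 0.04 to 0.18, adjusted p = 0.106 from edgeR). *Dvl3*, a Dishevelled protein that relays the receptor signal, had the smallest p of the list (log2 fold change 0.15, adjusted p = 0.0703 from edgeR). With the counts scaled to the library totals alone, *Dvl3* was called as higher, and the DESeq2 test called both *Dvl3* and *Ctnnb1*.

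**Figure D5:**
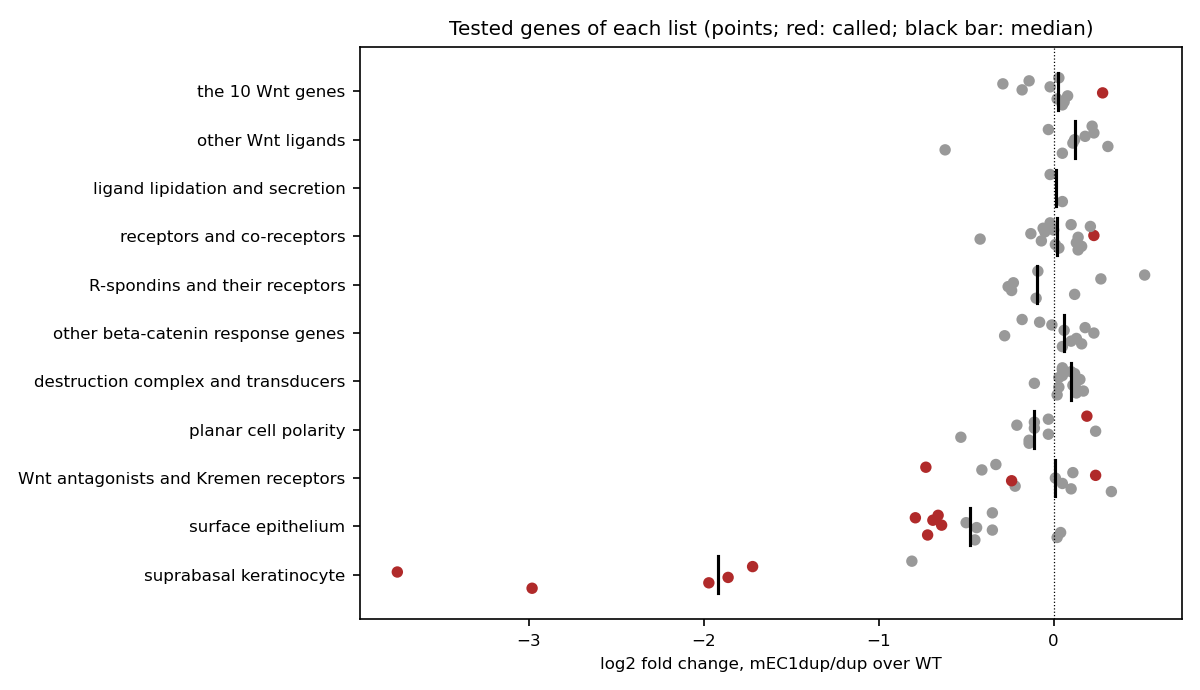
Log2 fold change of mEC1dup/dup over WT (x axis) of the tested genes in each list (points, called genes in red, median as a black bar), with the keratinocyte lists at the bottom. The Wnt lists have medians from -0.11 to 0.12, with single genes down to -0.73 (*Sfrp5*). The suprabasal keratinocyte markers have a median of -1.92 and reach -3.75.

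Of 10 planar cell polarity genes, 8 had a negative and 2 a positive log2 fold change, with a median of -0.11. Over all tested genes, 8409 of 16426 were negative. In this list 1 gene was called as higher, against 0.834% of all tested genes. This was *Vangl2*, which encodes a core membrane protein of this branch. It had 96.7, 91.8, 94.1, 86.8 and 86.2 CPM in WT and 108, 101, 103, 107 and 98.8 CPM in mEC1dup/dup. The groups did not overlap, with a log2 fold change of 0.19 (SE 0.04 and edgeR adjusted p = 0.0360). *Prickle1*, with the highest CPM of the list in WT though not per length, showed a log2 fold change of -0.11 (adjusted p = 0.480 from edgeR). The call of *Vangl2* was kept in the fits without mEC1dup/dup replicate 5 or WT replicates 1 or 4 and lost in the other 7, at log2 fold changes of 0.17 to 0.20, and with each of the 3 covariates (0.13 to 0.48).

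The Wnt antagonists held the other called genes, 2 lower and 1 higher of 11 tested, against 1.81% lower and 0.834% higher of all tested genes. *Sfrp5*, a decoy that binds Wnt proteins, had 56.0, 46.9, 52.4, 51.8 and 47.7 CPM in WT and 31.1, 26.8, 32.0, 29.8 and 33.7 CPM in mEC1dup/dup, with a log2 fold change of -0.73 (SE 0.07 and edgeR adjusted p = 0.000524). The related *Sfrp1* moved the other way, from 311 ± 13.9 CPM (SD, n = 5) to 367 ± 18.1 CPM (SD, n = 5), with a log2 fold change of 0.24 (adjusted p = 0.0126 from edgeR). *Kremen1*, a membrane receptor for Dkk antagonists, fell by 0.24 on the log2 scale (edgeR adjusted p = 0.0182). In all 3 genes the groups did not overlap. *Sfrp2*, with the highest CPM of the list, averaged 1310 ± 149 CPM in the WT group against 1410 ± 82.4 CPM in the mEC1dup/dup group (SD, n = 5 each) and was not called (adjusted p = 0.512 from edgeR). *Sfrp5* and *Sfrp1* kept their calls in all 10 fits that left out 1 library, and *Kremen1* in 8, losing it without mEC1dup/dup replicate 3 or WT replicate 2. With *Xist*, the embryonic globin share or the epithelium markers as a covariate, *Sfrp1* was no longer called at log2 fold changes of 0.32, 0.60 and 0.27. *Kremen1* was no longer called either, at -0.20, 0.11 and -0.13. *Sfrp5* kept its call beside the epithelium markers (-0.65) and lost it with *Xist* (-0.62) and the globin share (-0.26).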

How the data were processed

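The authors deposited raw counts per gene without normalization, made with featureCounts from STAR alignments (GRCm39) of read pairs that fastp had trimmed. The annotation release, strand setting and handling of reads with several matches are not given in the sources used here. Each column was mapped to a genotype and replicate through its label. Symbols, positions and exon lengths came from GENCODE vM39 (GRCm39), which matched 49355 of 53465 genes.

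Genes were filtered with filterByExpr, scaled by TMM and tested with edgeR version 4.0.16 (glmQLFit, glmQLFTest, genotype as the only term) in R version 4.3.3. Standard errors are the log2 fold change divided by the square root of F, and 95% intervals use the t distribution of the same fit, unadjusted for the number of genes. Log2 CPM of single libraries used a prior count of 2. RPKM is CPM per kilobase of exon union. Total counts were about equal between libraries (17461544 to 18462073), and counting errors cover sampling of reads only. The steps were tested on simulated data.

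Replicates are independent biological samples per the methods, and no pair of one genotype agreed to within sampling error (chi-square divided by its degrees of freedom, 2.48 to 16.8). Alternatives were DESeq2 (version 1.42.0) size factors and Wald test, limma-voom (limma version 3.58.1), total counts alone, other filters, the replicate number as a block, 3 covariates and each library left out. The 10 genes, the gene lists and the alternatives were chosen with earlier results of these data known. Named genes are the 10, every called gene of the pathway lists, the gene with the highest CPM and the gene with the smallest p of each list, and the 3 genes most alike to a called one. *Cpa3*, *Dpt* and *Lum* are named as the called genes of the leukocyte and dermal fibroblast marker lists. The epithelium markers were named, and the ratios between genes computed, after their values were seen.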

Additional observations from a re-analysis of the deposited data

Results flagged for a closer look

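Single libraries were compared with the other 4 of their genotype by Dixon's ratio of the gap to the range, over 50 groups of values, and 4 passed the 95% critical value of 0.71, where chance gives about 1 in 20. WT replicate 1 had 42.6 CPM of *Wnt4*, against 33.5 to 35.9 CPM in the other WT libraries. mEC1dup/dup replicate 1 had 55.4 CPM of *Wnt6*, against 41.2 to 44.4 CPM in its group. The same library had a summed level of surface epithelium markers of 1240 CPM, against 976 to 1020 CPM. WT replicate 4 had a summed level of neuron and glia markers of 583 CPM, against at most 271 CPM in the others.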

How the results depend on the processing

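Scaling by DESeq2 size factors or by total counts alone, and both other filters, turned the direction of none of the 10 Wnt genes and changed none of their calls. The DESeq2 Wald test called 510 lower and 321 higher genes in all, 8 of the higher among the other pathway genes. Limma-voom left 0 of the 10 called.

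The study's methods give the replicates as siblings taken from separate litters, without the litter of each library or whether the replicate number marks one. Deviations of same-numbered libraries correlated at -0.056 to 0.345 (mean 0.162, against -0.040 for other pairs), with 4 of 10 libraries closest to their own number, so whether the numbers pair the libraries is not settled. In a fit that blocked on the number, 487 genes were lower and 200 higher, 5 of the lower being other pathway genes, and 1 of the 10 was called lower, *Wnt5a* (log2 fold change -0.28, adjusted p = 0.0351 in edgeR's test).

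With *Xist*, which nearly follows the genotype, as a covariate, 1 gene was lower and 2 were higher. In that fit 0 of the 10 and 0 other pathway genes were called in either direction. Signs turned for *Wnt7b* (-0.18), *Axin2* (-0.15), *Nkd1* (-0.018) and *Rspo3* (-0.17). With the embryonic globin share, which separates the genotypes, 0 genes were called by edgeR in either direction, with 795 at an unadjusted p under 0.05. Signs turned for *Wnt3* (0.10), *Wnt4* (0.50), *Wnt5a* (0.20), *Wnt6* (0.19), *Rspo3* (-0.68) and *Kremen1* (0.11). With the epithelium markers, which nearly follow the genotype, 8 genes were lower and 2 higher. In that fit 1 other pathway gene was lower, 0 were higher and 0 of the 10 were called. Signs turned for *Wnt3* (0.062), *Wnt4* (0.23), *Wnt5a* (0.044), *Wnt6* (0.13) and *Rspo3* (-0.04). The causes were not tested.

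Leaving out 1 library gave 120 to 476 lower and 34 to 179 higher genes, 1 to 3 lower and 1 to 3 higher other pathway genes, and 0 to 1 lower and 0 to 1 higher among the 10. Among genes near 0, signs turned for *Wnt4* (log2 fold change -0.097 to 0.039), *Wnt7b* (-0.027 to 0.078), *Axin2* (-0.011 to 0.10) and *Rspo3* (-0.052 to 0.141).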

Other observations

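The ratio of one Wnt gene to another within a library does not depend on how the libraries are scaled, and all 45 ratios between the 10 genes were computed after the data were seen. The counts of *Wnt5a* were 3.95, 4.57, 4.65, 3.46 and 3.42 times those of *Wnt11* in WT replicates 1 to 5, and 2.93, 2.67, 2.56, 3.06 and 2.36 times in mEC1dup/dup replicates 1 to 5. The ratio was lower in all 5 mEC1dup/dup libraries than in every WT library, although each of the 2 genes overlapped between genotypes on its own. The difference was -0.56 on the log2 scale (two-sided exact permutation test, p = 0.00794, the smallest that 252 arrangements allow). Adjusted over the 45 ratios, p of this test was 0.0595, above the threshold. That value is set by how many of the 45 reached the smallest p, which were 6, and not by the size of this difference. The groups did not overlap in 6 of the 45 ratios, against 4.61% of all ratios between tested genes. The other 5 were *Wnt3* to *Wnt11* (log2 difference -0.45), *Wnt6* to *Wnt11* (-0.42), *Wnt5a* to *Axin2* (-0.34), *Wnt5a* to *Wnt7b* (-0.30) and *Wnt3* to *Axin2* (-0.24). The ratio of *Wnt5a* to *Axin2* was 2.32 to 2.60 in WT and 1.84 to 2.04 in mEC1dup/dup, so WT replicates 4 and 5, which were low in both genes, did not stand apart in it. Ratios that share a gene are not independent of each other.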
